A study of Mus musculus with 4 samples.

Results

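The AMPK energy-sensing axis was examined in liver RNA of obese mice with and without ADAR2. The 10 genes considered were the AMPK subunit genes Prkaa1, Prkaa2, Prkab1, Prkab2, Prkag1 and Prkag2, the upstream kinase genes Stk11 and Camkk2, and Sirt1 and Ppargc1a. They were picked by symbol for their roles in this pathway, and all 10 were found among the 25655 genes of the deposited count table. HFD-WT mice were ADAR2+/+ and HFD-KO mice were ADAR2-/-, and all carried the GluR-B R/R allele, which encodes an already edited glutamate receptor and keeps mice without ADAR2 alive. All were males on a mixed B6129S background that received a high-fat diet for 12 weeks from an age of 5 weeks. Each group had 2 libraries, with between 24480798 and 28691330 counted reads per library. The study describes this comparison with more mice per group than there are libraries. Whether a library pooled mice is not given in the sources used here. The p values therefore set differences against the spread between these libraries, estimated with help from other genes. How far that spread is technical rather than between mice is not known.

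AMPK is a heterotrimeric kinase. Its alpha subunit carries the catalytic domain, its beta subunit holds the complex together and binds glycogen, and its gamma subunit binds AMP, ADP and ATP and so reads the energy state of the cell. LKB1, encoded by Stk11, and CaMKK2 phosphorylate the activation loop of the alpha subunit, the former constitutively and the latter when calcium rises. In liver, active AMPK switches off fatty acid and sterol synthesis and favours fatty acid oxidation. SIRT1 is an NAD-dependent deacetylase, and PGC-1α, encoded by Ppargc1a, is a transcriptional coactivator of mitochondrial and gluconeogenic genes that both enzymes modify. Kinase activity is set by phosphorylation and nucleotides, which counts of mRNA do not measure.

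Adarb1, the gene that encodes ADAR2, had 15.7 and 19.8 CPM (counts scaled to a common library size, here adjusted by the TMM method) in HFD-WT livers against 6.23 and 9.55 CPM in HFD-KO livers. The log2 ratio of HFD-KO to HFD-WT was -1.17 (SE 0.20, adjusted p = 0.159 by the quasi-likelihood test of edgeR). With all libraries kept, the adjusted p ranged from 0.000395 by DESeq2's Wald test to 0.165 by edgeR with DESeq2's size factors. Reads on Adarb1 were thus present in the libraries labelled HFD-KO, and counts per gene do not show which exons they cover. The hepatocyte markers Alb, Apoa1, Ttr, Cyp2e1 and Hnf4a summed to between 75950 and 88300 CPM. In all 4 libraries this was above the sum for every other cell type whose markers were listed. Genes of skeletal muscle, a tissue rich in AMPK, summed to between 0.691 and 1.76 CPM over 5 markers.

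Across the liver transcriptome, 10 of 12967 genes tested, or 0.0771%, passed an adjusted p of 0.05, and none of the 10 AMPK axis genes was among them (adjusted p from 0.497 to 0.998 by edgeR). At an unadjusted p under 0.05, Stk11 and Camkk2 were higher in HFD-KO livers and no member was lower, that is 2 of 10 genes against a background of 8.98% of all genes in either direction and 4.25% in the higher direction. The 10 log2 fold changes lay between -0.14 and 0.33, with a median of 0.01, against a median of 0.01 over all genes tested. Disregarding the sign, the median was 0.09 for the 10 genes and 0.12 for all genes tested. The 95% intervals of all 10 genes lay between -0.49 and 0.63, that is between 0.711 and 1.54 times the HFD-WT level. Differences smaller than a gene's interval were not detectable at this depth and number of libraries.

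**Figure D1:**
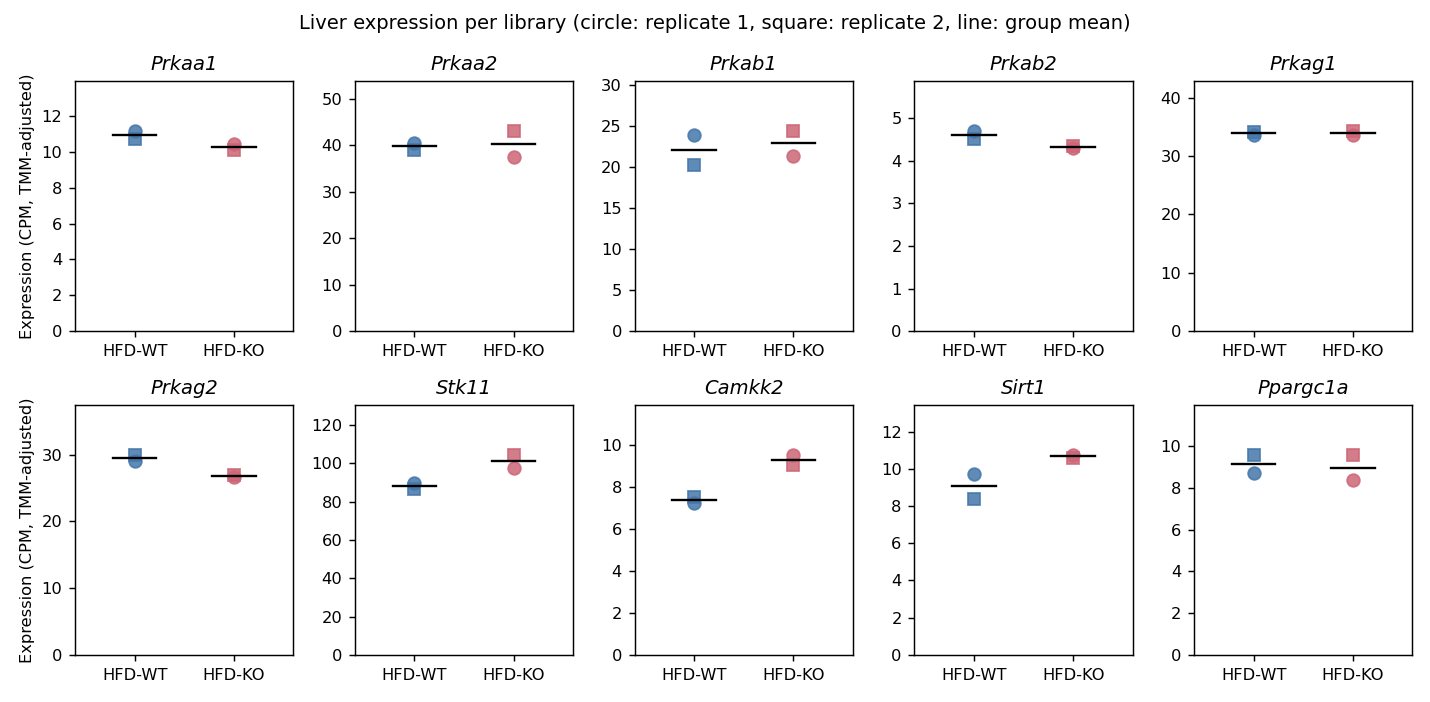
Expression of the 10 genes in CPM (vertical axes from 0) in each HFD-WT (blue) and HFD-KO (red) library, with circles for replicate 1, squares for replicate 2 and lines for group means. Stk11, Camkk2 and Sirt1 lay above the HFD-WT values in both HFD-KO libraries, and Prkaa1, Prkab2 and Prkag2 lay below them. The values of Prkaa2, Prkab1, Prkag1 and Ppargc1a overlapped between genotypes. Over all genes tested, 20.5% lay above and 20.3% below without overlap.

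The levels of different genes were compared by RPKM, which divides reads by exon length. Orders and shares on this scale rest on those lengths, and which transcript lengths the liver expressed was not measured. Prkag1, for example, had 819 to 975 reads per library over 1.96 kb, and Prkag2 had 645 to 843 reads over 4.52 kb. Stk11 was the most abundant of the 10 mRNAs, with 20.7 to 23.7 RPKM over the 4 libraries, followed by Prkag1 with 16.9 to 17.9 RPKM and Prkab1 with 8.99 to 10.4 RPKM. Prkag2 (5.83 to 6.80 RPKM) and Prkaa2 (4.30 to 4.87 RPKM) came next, and the ranges of these first 5 genes did not overlap. Prkaa1, with 1.95 to 2.24 RPKM, and Sirt1, with 1.75 to 2.16 RPKM, overlapped and could not be ordered. Ppargc1a had 1.16 to 1.38 RPKM, above Camkk2 with 0.836 to 1.08 RPKM and Prkab2 with 0.781 to 0.872 RPKM, and these latter ranges overlapped. The 2 genes with the highest fold change in HFD-KO livers, Camkk2 and Sirt1, were thus among the 5 least abundant mRNAs of the axis.

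Prkaa1 and Prkaa2 encode the alternative catalytic subunits. Prkaa2 (ENSMUSG00000028518), on chromosome 4 from 104887071 to 104967087 of GRCm39, measured 40.6 and 38.9 CPM in HFD-WT and 37.5 and 43.0 CPM in HFD-KO livers. The HFD-KO values lay on either side of the HFD-WT values, and the log2 fold change was 0.02 (SE 0.10, 95% interval -0.21 to 0.24, adjusted p = 0.974 by edgeR). Prkaa1 (ENSMUSG00000050697), on chromosome 15 from 5173343 to 5211380, was at 11.2 and 10.7 CPM in HFD-WT and 10.4 and 10.1 CPM in HFD-KO livers. Both HFD-KO values lay just below the HFD-WT values, but the log2 fold change of -0.09 was smaller than its SE of 0.11 (adjusted p = 0.846 by edgeR). On the RPKM scale, Prkaa2 held 68.0% of the alpha subunit mRNA in each HFD-WT library, and 67.7% and 71.4% in HFD-KO replicates 1 and 2. Its share was higher by 1.54 percentage points in HFD-KO livers, less than the SD of 2.6 points within that group (exact two-sided permutation p = 1, the smallest possible being 0.333).

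Prkab1 and Prkab2 encode the scaffold subunits. Prkab1 (ENSMUSG00000029513), on chromosome 5 from 116151645 to 116162567, was at 23.9 and 20.2 CPM in HFD-WT and 21.3 and 24.4 CPM in HFD-KO livers. The libraries of each genotype differed more from each other than the group means did, and the log2 fold change was 0.05 (SE 0.11, adjusted p = 0.929 by edgeR). Prkab2 (ENSMUSG00000038205), on chromosome 3 from 97565509 to 97581128, was the scarcest gene of the axis with 104 to 136 reads per library. It had 4.70 and 4.51 CPM in HFD-WT and 4.29 and 4.35 CPM in HFD-KO livers, for a log2 fold change of -0.09. Its interval of -0.49 to 0.31 was the widest of the 10 (adjusted p = 0.910 by edgeR). Prkab1 made up between 91.4% and 92.9% of the beta subunit mRNA, with a mean share of 91.8% ± 0.66 (SD, n = 2) in HFD-WT and 92.5% ± 0.58 in HFD-KO livers (exact permutation p = 0.667).

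Prkag1 and Prkag2 encode the nucleotide-binding subunits. Prkag1 (ENSMUSG00000067713), on chromosome 15 from 98710678 to 98729402, was the steadiest gene of the axis, with 33.7 and 34.1 CPM in HFD-WT and 33.5 and 34.3 CPM in HFD-KO livers. Its coefficient of variation over the 4 libraries was 1.07%, below the 3.33% that counting error alone would give at its mean count. Its log2 fold change was 0.00 (SE 0.08, 95% interval -0.18 to 0.19, adjusted p = 0.998 by edgeR). Prkag2 (ENSMUSG00000028944), on chromosome 5 from 25067742 to 25305640, was at 29.1 and 30.0 CPM in HFD-WT and 26.7 and 27.0 CPM in HFD-KO livers. It was the subunit with the largest difference in size, a log2 fold change of -0.14 (SE 0.08, 95% interval -0.32 to 0.05, unadjusted p = 0.119, adjusted p = 0.665 by edgeR). Prkag1 held 72.7% and 72.4% of the gamma subunit mRNA in HFD-WT and 74.3% and 74.6% in HFD-KO livers. The groups did not overlap in this share, which was 1.87 percentage points higher in HFD-KO livers (exact permutation p = 0.333, the smallest that 2 libraries per group allow).

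Of the 6 subunit genes, 0 passed an unadjusted p of 0.05. Summed per subunit class, alpha subunit mRNA was 6.90 ± 0.12 RPKM (SD, n = 2) in HFD-WT and 6.59 ± 0.33 RPKM in HFD-KO livers. Beta subunit mRNA was 10.6 ± 1.0 and 10.5 ± 0.81 RPKM, and gamma subunit mRNA was 24.2 ± 0.58 and 22.8 ± 0.070 RPKM. In every library alpha subunit mRNA was thus the scarcest class and gamma subunit mRNA the most abundant. Prkag3, the third gamma subunit gene and known from muscle, had 2 reads over the 4 libraries together and was not tested.

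**Figure D2:**
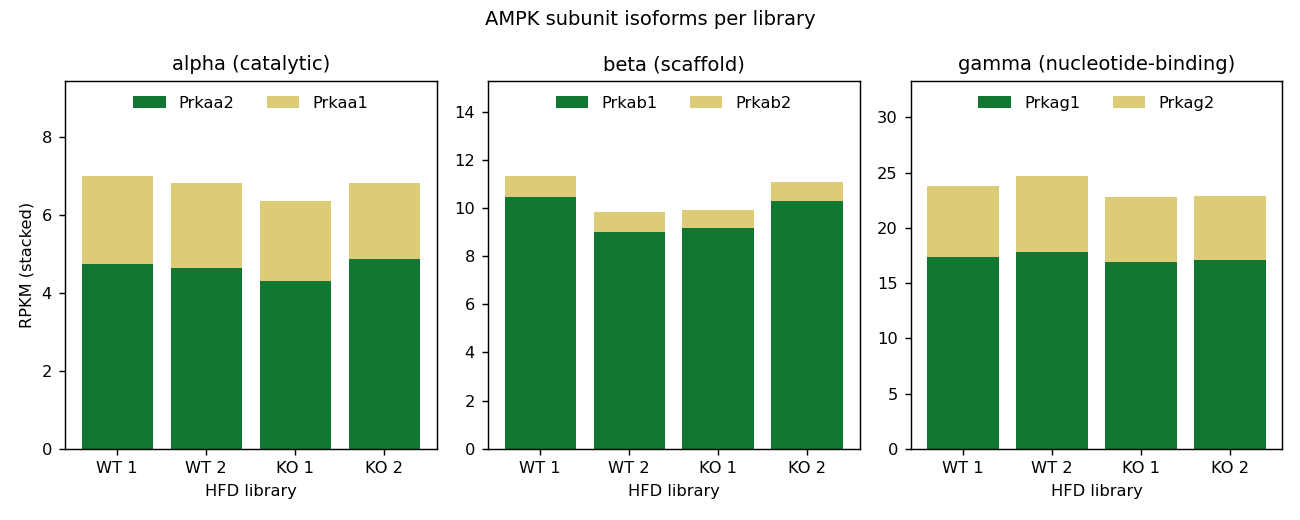
Stacked RPKM of the isoforms of the alpha, beta and gamma subunits (vertical axes from 0) in each HFD-WT and HFD-KO library. Prkaa2, Prkab1 and Prkag1 were the main isoforms in all 4 libraries, and the share of Prkag1 was at most 72.7% in HFD-WT and at least 74.3% in HFD-KO libraries.

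The upstream kinases, Sirt1 and Ppargc1a are regulated at the level of transcription as well as by protein modification, and all 10 genes were matched by symbol to RefSeq promoter windows (GRCm38.p6), of which the 250 bases before the gene start were used. The windows of the genes with the largest differences and of Ppargc1a, a textbook target of the cAMP-responsive factor CREB, are shown 5′ to 3′ along the gene's strand. Capitals mark the half-site TGACG of the CREB motif on either strand and the E-box CACGTG, which clock factors and MYC relatives can bind.
Stk11, chr10:80115545-80115794, plus strand: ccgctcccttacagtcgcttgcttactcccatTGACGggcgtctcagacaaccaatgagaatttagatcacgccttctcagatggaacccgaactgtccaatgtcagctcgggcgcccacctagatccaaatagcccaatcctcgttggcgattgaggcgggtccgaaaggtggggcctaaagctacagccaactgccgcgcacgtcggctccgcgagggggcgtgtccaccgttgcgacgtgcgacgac
Camkk2, chr5:122779411-122779660, minus strand: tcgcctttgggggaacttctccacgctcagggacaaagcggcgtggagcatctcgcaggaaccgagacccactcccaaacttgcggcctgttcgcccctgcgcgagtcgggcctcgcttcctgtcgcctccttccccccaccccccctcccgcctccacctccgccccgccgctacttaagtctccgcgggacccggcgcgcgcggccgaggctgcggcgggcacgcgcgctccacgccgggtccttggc
Sirt1, chr10:63339036-63339285, minus strand: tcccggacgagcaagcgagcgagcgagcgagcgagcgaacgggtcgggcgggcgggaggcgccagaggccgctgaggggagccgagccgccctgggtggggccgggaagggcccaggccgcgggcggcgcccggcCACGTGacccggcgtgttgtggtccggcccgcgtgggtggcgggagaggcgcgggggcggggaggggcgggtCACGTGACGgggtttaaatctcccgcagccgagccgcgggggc
Ppargc1a, chr5:51567726-51567975, minus strand: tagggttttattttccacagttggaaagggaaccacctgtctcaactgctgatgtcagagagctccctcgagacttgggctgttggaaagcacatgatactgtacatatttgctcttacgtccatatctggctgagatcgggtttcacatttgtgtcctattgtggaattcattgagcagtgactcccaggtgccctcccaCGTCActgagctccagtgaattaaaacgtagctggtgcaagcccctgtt

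The Sirt1 window held CACGTG at 2 places, the nearer of which overlapped a TGACG, while 6.02% of all 32851 promoter windows held CACGTG at least once. TGACG lay in the windows of Stk11, Sirt1 and Ppargc1a and in those of Prkaa2 and Prkag1, and 17.8% of all windows held it. In Ppargc1a it ended 45 bases before the start. The complete motif TGACGTCA, found in 1.55% of all windows, was in none of the windows of the 10 genes. The Ppargc1a window held 5 CpG dinucleotides, near the median of 6 over all windows, while those of Stk11, Camkk2 and Sirt1 held 24, 32 and 39. The RefSeq start of Sirt1 lies 42.7 kb inside the longer gene model of GENCODE (vM21, same build), so its window is not at the outermost start, while the starts of Stk11, Camkk2 and Ppargc1a differ between these annotations by at most 8 bases. These letters describe the sequence only, since no binding was measured.

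Stk11 (ENSMUSG00000003068), on chromosome 10 from 79951637 to 79966516 of GRCm39, was at 89.7 and 86.7 CPM in HFD-WT and 97.8 and 104 CPM in HFD-KO livers. Both HFD-KO values lay above both HFD-WT values. The log2 fold change was 0.20 (SE 0.08, 95% interval 0.01 to 0.39, unadjusted p = 0.0435, adjusted p = 0.536 by edgeR), a level 1.15 times that in HFD-WT livers. Over 232 bases Stk11 overlaps Cbarp on the opposite strand, a gene with 37 to 70 reads against 2386 to 2597 reads on Stk11, and whether counting used strand is not given in the sources used here. Stk11 lies 2.77 Mb from Adarb1, so alleles linked to the targeted locus and the genotype cannot be told apart in these groups. Of the 169 genes tested within 5 Mb of Adarb1, 18 or 10.7% had an unadjusted p under 0.05, against a background of 8.98%. These included Stk11 itself. The share was 12.1% within 2.5 Mb and 9.6% within 20 Mb, and the windows were chosen after the values were seen.

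Camkk2 (ENSMUSG00000029471), on chromosome 5 from 122869233 to 122917472, was at 7.22 and 7.53 CPM in HFD-WT and 9.53 and 9.04 CPM in HFD-KO livers, from 207 to 251 reads per library. The HFD-KO values were again the higher ones, without overlap. It had the largest fold change of the 10 genes, a log2 value of 0.33 (SE 0.13, 95% interval 0.04 to 0.63, unadjusted p = 0.0305, adjusted p = 0.497 by edgeR), or 1.26 times the HFD-WT level. Leaving out a library leaves 1 in that group, which is then assumed to vary like the other group. The log2 fold change then was 0.15 to 0.24 for Stk11 and 0.30 to 0.37 for Camkk2, close to the values from all libraries, while the unadjusted p exceeded 0.05 for 3 of the 4 libraries left out. That of Stk11 was 0.149 without HFD-WT replicate 1, 0.224 without HFD-WT replicate 2 and 0.136 without HFD-KO replicate 2. That of Camkk2 was 0.131 without HFD-WT replicate 1, 0.0742 without HFD-WT replicate 2 and 0.101 without HFD-KO replicate 1.

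Sirt1 (ENSMUSG00000020063), on chromosome 10 from 63154784 to 63217483, was at 9.70 and 8.40 CPM in HFD-WT and 10.8 and 10.6 CPM in HFD-KO livers. Both HFD-KO libraries exceeded both HFD-WT libraries, although HFD-WT replicate 1 was closer to the HFD-KO values than to HFD-WT replicate 2. The log2 fold change was 0.24 (SE 0.12, 95% interval -0.05 to 0.53, unadjusted p = 0.0962, adjusted p = 0.634 by edgeR), and it was 0.14 without HFD-WT replicate 2 and 0.34 without HFD-WT replicate 1. Sirt1 and Adarb1 also share chromosome 10, at a distance of 14 Mb.

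Ppargc1a (ENSMUSG00000029167), on chromosome 5 from 51611592 to 51725068, was at 8.74 and 9.56 CPM in HFD-WT and 8.36 and 9.59 CPM in HFD-KO livers. The HFD-KO libraries spanned the HFD-WT range, and the log2 fold change was -0.03 (SE 0.13, adjusted p = 0.969 by edgeR). Its 95% interval reached from -0.34 to 0.28, that is from 0.791 to 1.21 times the HFD-WT level. Of the 10 genes, 3 lay above in both HFD-KO libraries, 3 lay below and 4 overlapped. Without overlap were therefore 60.0% of the members, against 40.8% of all genes tested, with 20.5% above and 20.3% below.

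**Figure D3:**
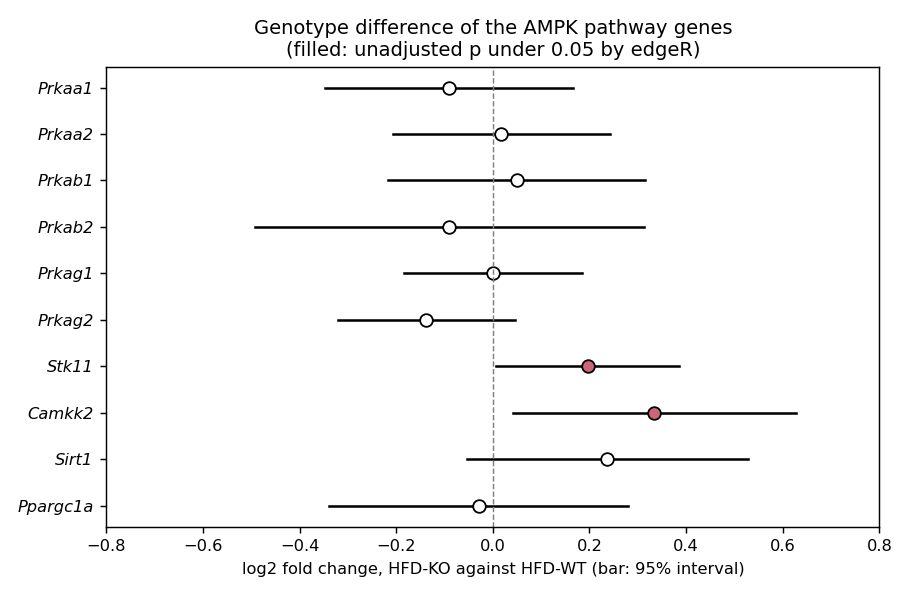
log2 fold change, HFD-KO over HFD-WT (horizontal axis), for the 10 genes, with 95% intervals as bars and filled points for an unadjusted p under 0.05. The intervals of 8 of the 10 genes contain 0, and those of Stk11 and Camkk2 begin just above it, at 0.01 and 0.04.

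The rest of the pathway was described with 5 lists holding 115 genes of the table, of which 110 were tested. None passed an adjusted p of 0.05 by edgeR, while 11 of the 110 had an unadjusted p under 0.05 (3 higher, 8 lower), against 8.98% of all genes tested, with 4.25% higher and 4.73% lower. No marker of the cell type lists had an adjusted p under 0.05 (smallest 0.112 by edgeR), and in bulk liver fewer cells of a type and less RNA per cell cannot be told apart. All 6 macrophage and Kupffer cell markers were lower in HFD-KO livers at an unadjusted p under 0.05, and their levels summed to 337 and 422 CPM in HFD-WT against 266 and 251 CPM in HFD-KO livers. The 5 stellate cell markers summed to 291 and 320 CPM in HFD-WT and 253 and 188 CPM in HFD-KO livers, with 3 at an unadjusted p under 0.05. The 5 endothelial markers, at 183 and 202 CPM against 177 and 194 CPM, overlapped in sum, with 1 of 5 at that threshold. Those of pancreatic acinar cells (9.01 to 11.7 CPM) overlapped in sum as well. Most of the acinar sum was Cela1, at 8.96 to 11.6 CPM, with Prss2 at 0 in every library. The 5 cholangiocyte markers summed to 71.6 and 90.5 CPM against 59.5 and 50.04 CPM, with Spp1 alone at that threshold. The 4 adipocyte markers summed to 97.1 and 106 CPM against 51.1 and 68.1 CPM, nearly all of it Cidec, which hepatocytes also express, with Lep at 0 in every library. The 5 B and plasma cell markers summed to 120 CPM in HFD-KO replicate 1 against 14.1 to 17.2 CPM in the other libraries. The 5 erythroid markers summed to 601 to 757 CPM in HFD-WT against 811 and 1146 CPM in HFD-KO. In each of these lists all 5 markers were higher in HFD-KO livers, with 3 at an unadjusted p under 0.05. The part of these cells in the differences given here was not tested.

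Regulators of AMPK itself held 15 tested genes, among them the LKB1 partners Strada, Stradb and Cab39, the kinase Map3k7, the folliculin complex and the sestrins. Of these, 1 had an unadjusted p under 0.05, or 6.67%, against 8.98% of all genes tested. The median log2 fold change of the list was 0.01. Tab1, an activating partner of the kinase TAK1, had 4.39 and 3.31 CPM in HFD-WT and 6.38 and 5.19 CPM in HFD-KO livers. Both HFD-KO values were higher, with a log2 fold change of 0.59 (SE 0.21, adjusted p = 0.477 by edgeR).

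The kinases that LKB1 activates beside AMPK held 11 tested genes. Of them, 1 or 9.09% had an unadjusted p under 0.05, against 8.98% of all genes tested. The median log2 fold change of these kinases was 0.11. Among them 7 genes were higher and 4 lower, against 6685 higher and 6282 lower of all genes tested. Sik1, a salt-inducible kinase that is itself induced by cAMP and restrains CREB coactivators, had 10.8 and 14.2 CPM in HFD-WT and 28.3 and 15.9 CPM in HFD-KO livers. HFD-KO replicate 1 stood far above the other 3 libraries. The log2 fold change of 0.82 (SE 0.26, adjusted p = 0.417 by edgeR) became 0.35 without that library and 1.18 without HFD-KO replicate 2. With all libraries kept, the adjusted p by edgeR ranged from 0.0685 with no filter to 0.557 with the replicate block.

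AMPK substrates and effectors held 26 tested genes, with a median log2 fold change of -0.03. Of these 26 genes, 4 or 15.4% had an unadjusted p under 0.05 (1 higher, 3 lower). Over all genes tested that share was 8.98%, with 4.25% higher and 4.73% lower. Acaca, which encodes the acetyl-CoA carboxylase that AMPK inhibits and that makes malonyl-CoA for fatty acid synthesis, had 56.6 and 61.7 CPM in HFD-WT and 47.1 and 53.7 CPM in HFD-KO livers. The HFD-KO values were the lower ones, with a log2 fold change of -0.23 (SE 0.10, adjusted p = 0.546 by edgeR), which was -0.14 without HFD-KO replicate 1 and -0.33 without HFD-KO replicate 2. Mlxipl, which encodes the glucose-responsive lipogenic factor ChREBP, had 225 and 211 CPM in HFD-WT and 280 and 244 CPM in HFD-KO livers. It was the gene on the higher side, with a log2 fold change of 0.26 (SE 0.10, adjusted p = 0.493 by edgeR). Without HFD-KO replicate 1 it was 0.16, and without HFD-KO replicate 2 it was 0.36. Tbc1d1, a Rab GTPase regulator of glucose transport, and Cry1, a clock repressor that AMPK marks for degradation, gave log2 fold changes of -0.40 (SE 0.16) and -0.45 (SE 0.16), with adjusted p values of 0.509 and 0.467. That of Tbc1d1 was -0.24 without HFD-WT replicate 2 and -0.56 without HFD-WT replicate 1. Cry1 lies on chromosome 10 as well, 7.8 Mb from Adarb1.

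Other genes of this list whose proteins the study assayed showed smaller differences. Srebf1, which encodes the lipogenic factor SREBP-1, had 130 and 127 CPM in HFD-WT and 123 and 116 CPM in HFD-KO livers, for a log2 fold change of -0.11 (SE 0.08, adjusted p = 0.713 by edgeR). The HFD-KO values were slightly below, without overlap. Creb1, which encodes CREB, had 12.1 and 11.6 CPM against 11.3 and 13.7 CPM, and Gsk3b, a kinase that restrains glycogen synthesis, had 34.7 and 32.2 CPM against 31.5 and 35.4 CPM. Both overlapped between the genotypes, with log2 fold changes of 0.07 (SE 0.12) and 0.00 (SE 0.09).

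The genes of NAD supply, NAD use and the other sirtuins held 26 tested members. At an unadjusted p under 0.05, 3 were lower and 0 higher, or 11.5%, and the median log2 fold change was 0.03. Over all genes tested that share was 8.98%, with 4.73% lower and 4.25% higher. Nampt, the rate-limiting enzyme of the NAD salvage pathway on which SIRT1 depends, had 80.2 and 87.7 CPM in HFD-WT and 62.7 and 68.7 CPM in HFD-KO livers. All HFD-KO values lay below all HFD-WT values, with a log2 fold change of -0.35 (SE 0.09, 95% interval -0.57 to -0.14, unadjusted p = 0.00529, adjusted p = 0.330 by edgeR). Leaving out each library gave -0.42 to -0.29. Cd38, an enzyme that consumes NAD, had 13.4 and 14.03 CPM in HFD-WT and 11.6 and 11.3 CPM in HFD-KO livers. Sirt5, a mitochondrial deacylase, had 16.7 and 18.6 CPM in HFD-WT and 15.2 and 14.7 CPM in HFD-KO livers. Both were lower without overlap, by log2 fold changes of -0.26 (SE 0.10) and -0.24 (SE 0.10), with adjusted p values of 0.507 and 0.527 by edgeR.

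The coactivators related to PGC-1α, their partners and their targets held 32 tested genes, of which 2 or 6.25% had an unadjusted p under 0.05, both lower. Their median log2 fold change was -0.05, with 12 genes higher and 20 lower. Over all genes tested, 6685 were higher and 6282 lower, and 8.98% had an unadjusted p under 0.05. Lpin1, which encodes the phosphatidate phosphatase lipin 1 that also acts as a partner of PGC-1α, had 162 and 334 CPM in HFD-WT and 98.5 and 112 CPM in HFD-KO livers. HFD-WT replicate 2 stood far above the rest, and the HFD-KO values were the lowest. The log2 fold change of -1.24 (SE 0.29, adjusted p = 0.268 by edgeR) became -0.62 without that HFD-WT library and -1.67 without HFD-WT replicate 1. With all libraries kept, the adjusted p ranged from 0.0101 by edgeR with no filter to 0.51 by DESeq2's Wald test. Ucp2, a mitochondrial carrier, had 43.6 and 60.1 CPM in HFD-WT and 43.2 and 31.9 CPM in HFD-KO livers, for a log2 fold change of -0.47 (SE 0.18, adjusted p = 0.518 by edgeR), which became -0.21 without HFD-WT replicate 2 and -0.26 without HFD-KO replicate 2. It was -0.69 without HFD-WT replicate 1 and -0.70 without HFD-KO replicate 1.

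Among the gluconeogenic and oxidative targets of the coactivator, Pck1, G6pc, Cpt1a and Ppara did not pass the unadjusted threshold in the main comparison. Pck1, which encodes the gluconeogenic enzyme PEPCK, had 2367 and 2538 CPM in HFD-WT and 2720 and 2232 CPM in HFD-KO livers, for a log2 fold change of 0.01 (SE 0.13). G6pc, which encodes glucose-6-phosphatase, had 170 and 255 CPM in HFD-WT and 378 and 245 CPM in HFD-KO livers. The log2 fold change of 0.55 (SE 0.24, unadjusted p = 0.0503, adjusted p = 0.556 by edgeR) became 0.21 without HFD-KO replicate 1 and 0.28 without HFD-WT replicate 1. It was 0.87 without HFD-WT replicate 2 and 0.83 without HFD-KO replicate 2. With all libraries kept, the unadjusted p of G6pc ranged from 0.00785 by edgeR with no filter to 0.192 by DESeq2's Wald test. Cpt1a, which encodes the enzyme that admits fatty acids to mitochondria, had 669 and 682 CPM in HFD-WT and 623 and 580 CPM in HFD-KO livers. Both HFD-KO values were lower, with a log2 fold change of -0.17 (SE 0.09, adjusted p = 0.644 by edgeR). Ppara had 126 and 113 CPM in HFD-WT and 96.3 and 135 CPM in HFD-KO livers, so its groups overlapped. Pdk4, which encodes a kinase that restrains pyruvate oxidation and is singled out here after its values were seen, had 14.4 and 13.8 CPM in HFD-WT and 10.9 and 53.1 CPM in HFD-KO livers. This log2 fold change of 1.17 (SE 0.59, adjusted p = 0.626 by edgeR) came with a high value in HFD-KO replicate 2, while HFD-KO replicate 1 was below both HFD-WT libraries.

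**Figure D4:**
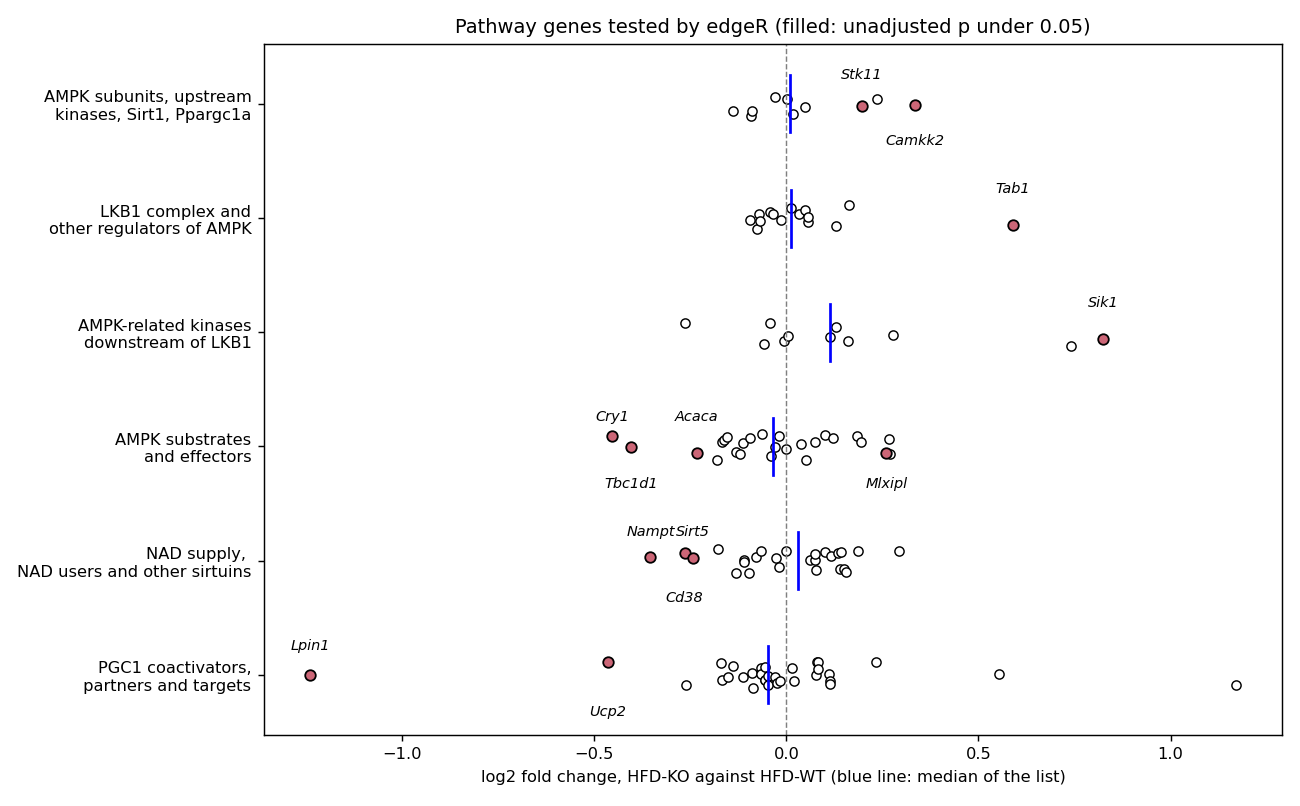
log2 fold change, HFD-KO over HFD-WT (horizontal axis), for the tested genes of the AMPK axis (top) and of the 5 pathway lists, with 1 point per gene, filled and named at an unadjusted p under 0.05, and a blue line at the median of each list. The medians lie between -0.05 and 0.11, and Lpin1 is the named gene farthest from 0, at -1.24.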

How the data were processed

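Liver RNA was extracted with TRIzol, made into libraries with a directional MGI kit and sequenced as 100-bp read pairs on a DNBSEQ-G400RS. The authors used MGI's alignment tool for trimming, aligned to the mouse genome and quantified genes of GENCODE with Partek Genomics Suite. The methods name mm10, while gene positions in the table are those of GRCm39. Use of strand and treatment of multi-mapping reads are not given in the sources used here. The deposited whole-number counts were tested. The deposited RPKM values gave levels between genes, and the authors' CPM column, a score on an adjusted library size, was not used. The deposited TPM values rescale RPKM by a constant per library, so their identical isoform shares were no independent check.

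Groups came from the sample labels. Counts were filtered by filterByExpr (12967 genes), normalized by TMM and compared by the two-sided quasi-likelihood test of edgeR 4.0.16 in R 4.3.3, with Benjamini-Hochberg adjustment over all genes tested. Intervals of 95% used the moderated standard error. DESeq2 1.42.0 served as an alternative, and functions were tested on simulated data. The members, lists and tests were chosen with earlier results of these data known. Genes named are the 10 members, Adarb1, listed genes with an unadjusted p under 0.05 (at most 8 per list) and pathway genes whose products the study assayed. Cell type markers were listed likewise. Alternatives were other scalings, no filter, DESeq2, a replicate block and leaving out each library. Between replicates, the chi-square of the counts divided by its degrees of freedom was 10.9 in HFD-WT and 43.4 in HFD-KO, above what counting error alone gives. A total of 3 counts, taken as the floor, equals 0.105 to 0.123 CPM.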

Additional observations from a re-analysis of the deposited data

How the results depend on the processing

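With 2 libraries per group, depth and replication limit these data to differences well above the intervals given. Among the 10 AMPK axis genes, 0 passed an adjusted p of 0.05 under the 9 alternatives. The number at an unadjusted p under 0.05 was 2 in the main comparison and with DESeq2's size factors, 1 with no filter on low counts, 0 with the library size alone, 0 with DESeq2's Wald test, 0 with the replicate block, and 0 to 1 when each library was left out. With the replicate block the unadjusted p of Stk11 was 0.0722 and that of Camkk2 0.0502. The log2 fold changes of Stk11, Camkk2, Sirt1, Prkag2, Prkaa1 and Prkab2 kept their sign under all 9 alternatives. That of Prkag1, near 0, turned to -0.001133 with DESeq2's size factors, -0.04574 with the library size alone, -0.004021 with no filter and -0.001135 with DESeq2's Wald test, and Prkaa2 turned to -0.02951 with the library size alone, a scaling that shifts the median of all genes to -0.039. Leaving out each library gave -0.087 to 0.12 for Prkaa2, -0.063 to 0.17 for Prkab1, -0.016 to 0.017 for Prkag1 and -0.13 to 0.069 for Ppargc1a. Gsk3b, at 0 in the main comparison, ranged from -0.088 to 0.084 when libraries were left out and was -0.001578, -0.04643, -0.004456, -0.001497 and -0.001161 with DESeq2's size factors, the library size alone, no filter, DESeq2's Wald test and the replicate block. Pck1 was -0.032 with the library size alone and -0.14 to 0.15 when libraries were left out, Creb1 -0.070 to 0.21 and Ppara -0.32 to 0.17. The share of Prkaa2 differed by -0.29 to 3.38 percentage points when libraries were left out, against 1.54.

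Adarb1 passed an adjusted p of 0.05 with no filter (log2 fold change -1.18, adjusted p = 0.00251), DESeq2's Wald test (-1.17, adjusted p = 0.000395) and the replicate block (-1.19, adjusted p = 0.040). Its log2 fold change was -0.89 without HFD-KO replicate 1 and -1.51 without HFD-KO replicate 2, the ends of its range when libraries were left out. Over all genes, an adjusted p under 0.05 was reached by 10 genes in the main comparison, 6 with the library size alone, 162 with no filter, 120 with DESeq2's Wald test, 20 with the replicate block and 0 to 705 when libraries were left out. An unadjusted p under 0.05 was reached by 1164 genes, 671 with DESeq2's Wald test and 462 to 2173 without a library. With the library size alone, 346 genes were higher and 894 lower, against 551 and 613. Of the pathway genes, 11 became 6 with DESeq2's Wald test and 4 to 15 without a library. Same-numbered libraries did not deviate together (correlation of deviations -0.087) and the labels describe no pairing, so the replicate block is given as an alternative only. The causes of these changes were not tested. A fit without a library leaves 1 in that group, so its counts of genes passing rest on the spread of the other group.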
